A study of Mus musculus with 112 samples.

Results

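The genes described here encode 10 factors of the pluripotent cell: Pou5f1, Nanog, Sox2, Klf4, Lin28a, Esrrb, Prdm14, Dppa3, Zfp42 and Tdgf1. DNA methylation (DNAme) was read at every CpG position that lay between 3000 bp upstream of a gene's start and its end in the mouse mm10 annotation. Of 4388579 positions with a value in any library of the series, 1417 lay in these windows. Each strand of a CpG is a position of its own. The values came from reduced representation bisulfite sequencing (RRBS), in which DNA is cut with enzymes that favour CpG-rich sequence, here MspI and TaqαI, and unmethylated cytosines are converted by bisulfite.

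The 112 libraries fell into 13 groups of male mice. F0 sperm came from C57BL/6J wild type (WT) males and from Nrf2-/- males on the same background, which are without the antioxidant regulator NRF2. The WT males were unexposed (10 libraries, control WT), breathed cigarette smoke (CS) in 9 libraries (smoked WT), or breathed CS and were then kept without it for 3 successive lengths of time between 28 and 171 days (recovery 1, 2 and 3, with 9, 10 and 10 libraries). By the paper, the control WT males were collected within days of the end of exposure. The recovery groups therefore also differ from control WT in age at collection. The Nrf2-/- males were unexposed in 10 libraries (control Nrf2-/-) and had breathed CS in 9 (smoked Nrf2-/-). F1 sperm was taken from adult sons whose sires were control WT (6 libraries) or smoked WT (7 libraries). F1 brain, which was prefrontal cortex, was taken from 8 adult sons for each of the 4 kinds of sire, WT or Nrf2-/- and control or smoked. No son had been exposed. Each son had a CAST/EiJ mother and so carries 1 CAST/EiJ allele, and the Nrf2 deletion reached sons of Nrf2-/- sires on 1 chromosome. A CpG that differs in sequence between the strains can therefore mix sequence with DNAme in F1 libraries, and a comparison of F1 brain with F0 sperm differs in generation and maternal strain as well as in tissue. A sample of control WT F1 brain bears an Nrf2-/- strain label beside its WT title, and which column of values it holds is unknown. Sperm had been treated to lyse somatic cells before DNA extraction, and each library is 1 animal by its labels.

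Pluripotency factors keep embryonic stem cells and the early embryo able to form every cell type of the body. Most are silenced as cells differentiate, and DNAme at their regulatory sequence is 1 of the marks associated with that silencing. Several also act in primordial germ cells, and Sox2 and Klf4 remain in use in somatic tissues, Sox2 in neural stem cells among them. DNAme in sperm is set in the male germ line, is largely erased after fertilization and is laid down again in the embryo.

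RRBS reaches only DNA near a cut site, and the members differed in how much of them it reached. A value was present at 56.1% of the CpGs of the Klf4 window and 53.6% of those of Sox2, which are rich in CpGs, against 42.4% for Dppa3, 32.6% for Zfp42, 26.5% for Lin28a, 25.1% for Prdm14, 20.9% for Pou5f1, 20.6% for Tdgf1, 18.6% for Esrrb and 13.4% for Nanog. A cytosine entered a comparison (scoreable) where each group of the set had values from 4 or more libraries. The windows held 497 scoreable cytosines of 1023708 in F0 sperm, 153 of 517958 in F1 sperm and 619 of 1390836 in F1 brain. In F0 sperm these were 138 in Esrrb, 118 in Klf4, 60 in Zfp42, 53 in Sox2, 41 in Prdm14, 40 in Lin28a, 21 in Dppa3, 15 in Tdgf1, 6 in Pou5f1 and 5 in Nanog. None of the Nanog cytosines lay between its start and 5 kb downstream, and Tdgf1 had 0 scoreable cytosines in F1 sperm. No read counts were given, so the depth behind a percent is unknown. The number of positions with a value ran from 510212 to 1855546 per library and was lowest in F1 sperm.

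Stretches that stand for the differences described below are shown here, from mm10 and on the strand of each gene, with the CpGs that had a value in any library in capitals. A coding stretch of Zfp42 (chr8:43295937-43296214, minus strand), a 5′ stretch of Dppa3 that crosses from coding sequence into an intron (chr6:122626796-122626834, plus strand) and a stretch upstream of Tdgf1 (chr9:110946571-110946609, minus strand) were low in sperm and high in brain.

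Zfp42: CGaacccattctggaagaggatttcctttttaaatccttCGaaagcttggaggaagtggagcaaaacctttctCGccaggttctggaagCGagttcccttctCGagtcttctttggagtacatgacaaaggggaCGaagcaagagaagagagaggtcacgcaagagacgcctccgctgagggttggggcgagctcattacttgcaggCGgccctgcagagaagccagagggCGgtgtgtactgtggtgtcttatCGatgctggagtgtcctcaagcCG
Dppa3: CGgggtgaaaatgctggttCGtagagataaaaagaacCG
Tdgf1: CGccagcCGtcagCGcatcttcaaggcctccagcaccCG

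Neighbouring intron stretches of Pou5f1 are shown because sperm was below brain at the first (chr17:35506601-35506646, plus strand) and above brain at the first 3 CpGs of the second (chr17:35507256-35507345, plus strand). An intron of Lin28a (chr4:134012104-134012191, minus strand) was above brain in sperm, and an intron of Esrrb (chr12:86475943-86476019, plus strand) was below it. A coding stretch of Klf4 (chr4:55530650-55530936, minus strand) held the member region that passed the test between genotypes.

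Pou5f1 first: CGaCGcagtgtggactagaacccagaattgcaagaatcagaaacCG
Pou5f1 second: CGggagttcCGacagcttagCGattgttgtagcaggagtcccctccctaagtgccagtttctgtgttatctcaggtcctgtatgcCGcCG
Lin28a: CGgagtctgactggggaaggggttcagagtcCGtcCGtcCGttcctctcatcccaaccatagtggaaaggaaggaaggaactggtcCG
Esrrb: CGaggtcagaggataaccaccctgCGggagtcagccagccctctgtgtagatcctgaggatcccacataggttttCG
Klf4: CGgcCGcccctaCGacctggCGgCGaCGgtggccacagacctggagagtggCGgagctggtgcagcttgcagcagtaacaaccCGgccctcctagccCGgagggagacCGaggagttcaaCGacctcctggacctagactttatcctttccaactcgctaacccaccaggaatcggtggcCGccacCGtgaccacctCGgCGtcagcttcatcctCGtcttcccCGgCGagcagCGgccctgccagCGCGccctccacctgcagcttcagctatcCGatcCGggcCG

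To set the tissues side by side, levels were taken over the cytosines that were scoreable in F0 sperm, F1 sperm and F1 brain alike. A library's level is its mean departure from the mean of each cytosine it covers, added to the mean over the cytosines, so a level can fall slightly outside 0 to 100%. Zfp42 (Rex1), a zinc finger protein used as a marker of naive pluripotency, stood furthest apart. Over 29 shared cytosines control WT libraries averaged 4.63% ± 1.6 (SD, n = 10) for F0 sperm, 6.2% ± 1.2 (n = 6) for F1 sperm and 92.5% ± 1.1 (n = 8) for F1 brain. The highest sperm library of these groups was at 8.63% and the lowest brain library at 90.9%. Across all 13 groups the mean of Zfp42 stayed between 3.88 and 6.2% in sperm and between 92.2 and 93.03% in brain.

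Dppa3 (Stella), a maternal factor that protects DNAme in the zygote, was measured at 2 shared cytosines. In control WT they stood at 1.08% ± 1.8 (SD, n = 10) in sperm of F0, 1.42% ± 1.1 (n = 6) in F1 sperm and 75.6% ± 6.8 (n = 8) in brain, where the lowest library was at 67.1%. Tdgf1 (Cripto), a co-receptor of NODAL, shared only 1 cytosine between F0 sperm and brain, with a median of 0% (0 to 9.09%, n = 10) in control WT F0 sperm and 63.6% (14.3 to 87.5%, n = 6) in brain. Its sperm and brain libraries did not overlap, but the brain libraries were spread over most of the scale. Pou5f1 (Oct4), a POU homeodomain factor at the centre of the pluripotency network, lay in between. Its 3 shared cytosines were, in control WT, at 17.7% ± 7.4 (SD, n = 9) in sperm of F0, 31.2% ± 6.6 (n = 4) in F1 sperm and 60.02% ± 5.0 (n = 8) in brain.

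Lin28a, an RNA-binding protein that blocks let-7 maturation, went the other way. Over 14 shared cytosines control WT F0 sperm was at 27.9% ± 4.7 (SD, n = 10), F1 sperm at 33.5% ± 3.6 (n = 4) and brain at 9.96% ± 1.0 (n = 8). The highest brain library, at 10.97%, lay below the lowest control WT sperm library, at 21.1%.

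The remaining members differed less. Nanog, a homeodomain factor, had 1 shared cytosine, in its last exon, which was high throughout, at 90.1% ± 5.0 (SD, n = 10), 80.6% ± 8.3 (n = 6) and 92.4% ± 4.0 (n = 8). Esrrb, an orphan nuclear receptor with the longest window of the 10, was at 48.6% ± 1.5 (n = 10), 45.7% ± 3.2 (n = 5) and 50.1% ± 0.78 (n = 8) over 47 cytosines. Prdm14, which acts in germ cell specification, was at 20.6% ± 0.89 (n = 10), 22.5% ± 2.1 (n = 6) and 20.6% ± 1.8 (n = 8) over 5 cytosines. Klf4 and Sox2 were near 0 in each. Klf4, a zinc finger factor, was at 1.66% ± 1.9 (n = 10), 0.449% ± 0.75 (n = 6) and 3.47% ± 1.8 (n = 8) over 7 cytosines, and Sox2, an HMG box factor, at 1.84% ± 0.71 (n = 10), 2.12% ± 1.3 (n = 4) and 3.25% ± 1.3 (n = 8) over 16. In brain the order from the highest level down was Zfp42, Nanog, Dppa3, Pou5f1, Esrrb, Prdm14, Lin28a, Klf4 and Sox2, of which Zfp42 and Nanog did not differ beyond their spread, nor did Klf4 and Sox2. Tdgf1, which had no cytosine shared with F1 sperm, was not ranked. These levels are set by which CpGs RRBS reached, so the order is one of the measured cytosines and not of whole genes.

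**Figure D1:**
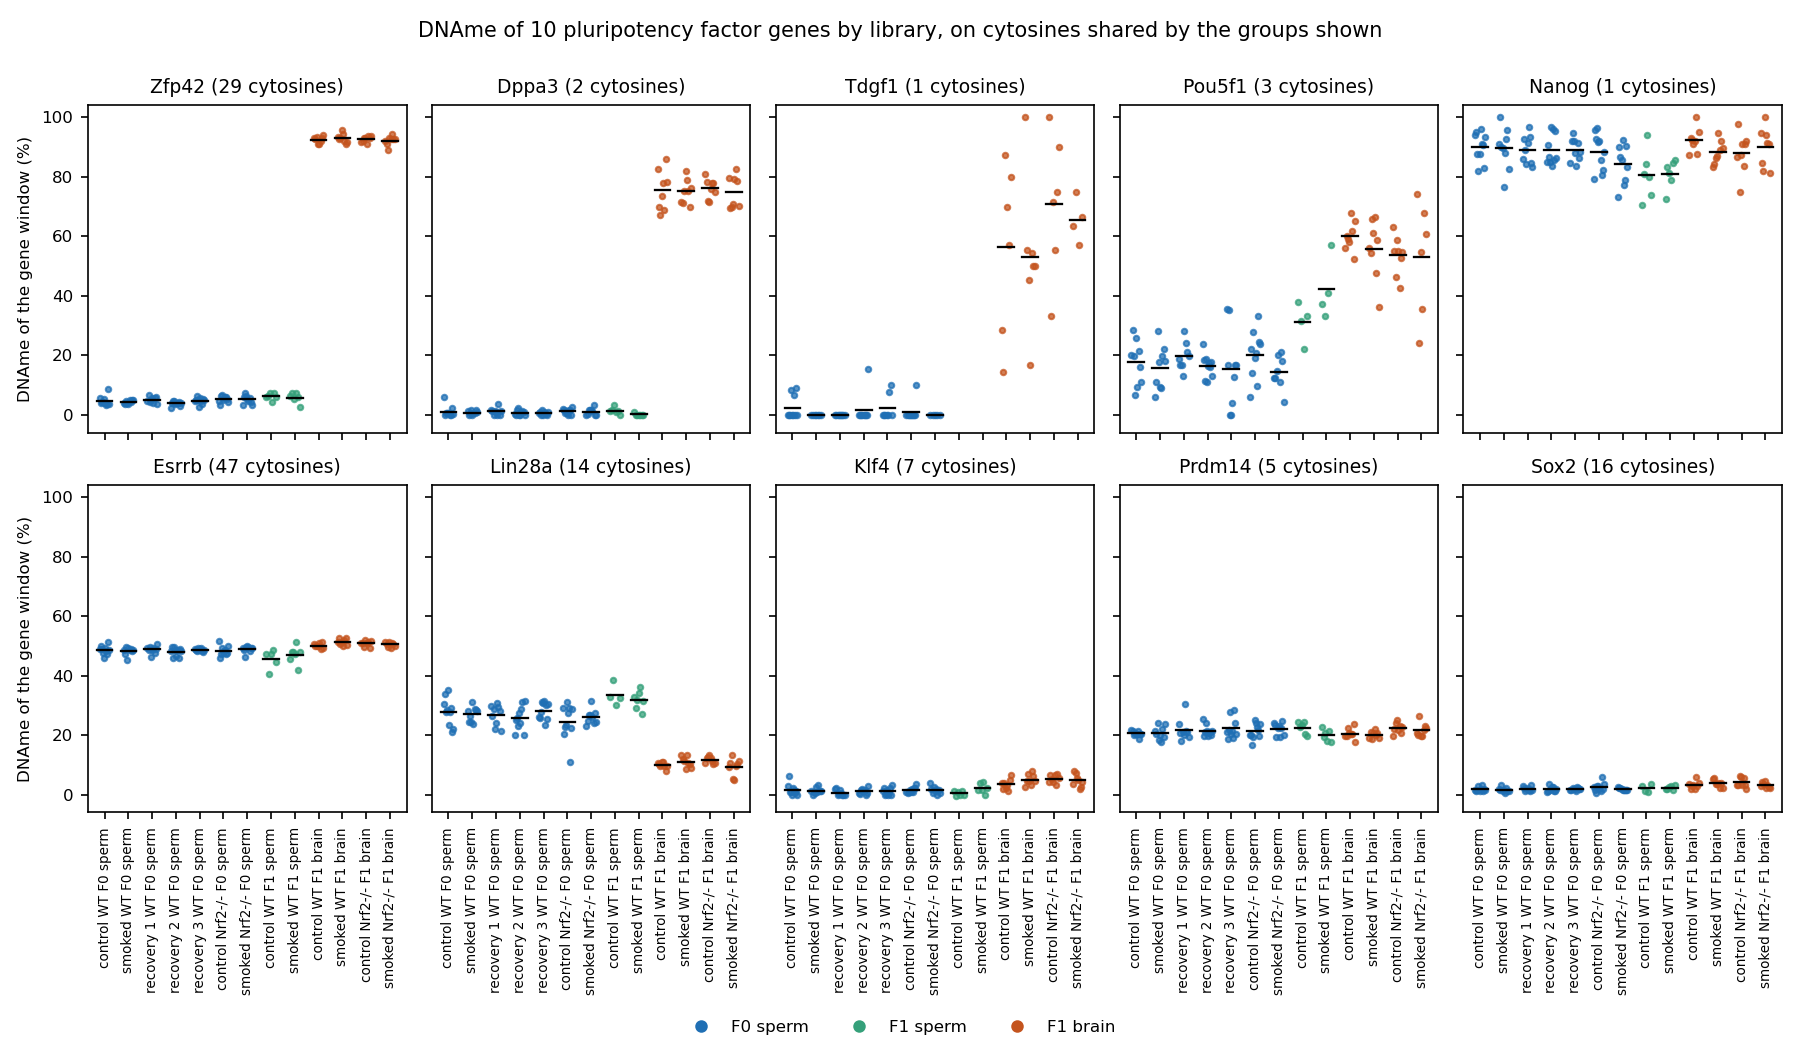
DNAme in percent (y axis) of each of the 10 genes in every library (points) of the 13 groups (x axis), over the cytosines scoreable in F0 sperm, F1 sperm and F1 brain, or in F0 sperm and F1 brain for Tdgf1; black lines are group means. Zfp42 and Dppa3 lie near 0 in every sperm group and above 60% in every brain library, and Lin28a has a higher mean in every sperm group than in any brain group. Within a tissue the group means lie close together in the genes other than Tdgf1, Pou5f1, Nanog and Lin28a.

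As a check of the tissue labels, the promoters of germline genes that are methylated in somatic cells were read in the same libraries. The 7 of 8 such promoters that were measured stood at 0.627 to 2.78% in control WT F0 sperm and at 65.5 to 90.5% in control WT F1 brain, and the 4 measured in control WT F1 sperm stood at 0.812 to 6.66%. Promoters of maternally imprinted genes, of which both alleles are unmethylated in sperm and 1 allele is methylated in somatic tissue, were at 0.667 to 2.03% in control WT F0 sperm (3 of 8 measured) and at 26.3 to 37.98% in brain (4 of 8). Their means over the same 4 promoters were 23.6 to 38.7% in brain of sons of smoked WT sires, 27.5 to 39.8% for control Nrf2-/- and 15.1 to 28.9% for smoked Nrf2-/- sires.

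Levels also differed by position within a gene. Of 443 cytosines scoreable in both F0 sperm and F1 brain, 298 were below 20% in control WT of both tissues and 47 above 60% in both. A further 56 were below 20% in sperm and above 60% in brain, and 48 of these lay in Zfp42, 6 in Dppa3, 1 in Esrrb and 1 in Prdm14. The reverse, above 60% in sperm and below 40% in brain, held for 4 of the 443 cytosines, all in Lin28a. Cytosines covered in too few groups are not among the 443, and some of them, given below for Klf4 and Pou5f1, also went this way.

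Zfp42 was low in sperm and high in brain both upstream of its start and in its coding exon. The coding stretch printed above lies about 11 kb into the gene. In the promoter window, from 1000 bp upstream to 500 bp downstream of the start, control WT F0 sperm ranged from 7.38 to 13.8% with a median of 10.5% (n = 10) and control WT F1 brain from 77.04 to 89.4% with a median of 84.8% (n = 7). Single cytosines near the far edge of that window departed from the low sperm level. Those at -961 and -933 bp from the start were at 51.3 and 35.0% in F0 sperm (n = 10 each) of control WT males, against 88.03 and 49.9% in brain (n = 4).

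Dppa3 changed along its length in sperm. Control WT F0 sperm was at 0 to 0.893% at the cytosines 387 to 424 bp after the start, where brain was at 66.7 to 68.4%. It was at 51.3% (n = 10) 2914 bp after the start and at 88.2 to 92.5% (n = 9) at 3 cytosines 3625 to 3634 bp after it, where brain was at 73.3 to 87.9% (n = 6). Sperm and brain thus differed over the 5′ part of Dppa3 and were both high at its 3′ end.

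In Pou5f1 the order of sperm and brain differed between neighbouring stretches. At the first printed stretch, 584 to 628 bp after the start, cytosines were at 10.9 to 26.6% (n = 9) in control WT F0 sperm and at 51.7 to 76.7% (n = 8) in brain. At the first 3 CpGs of the second, 1238 to 1258 bp after the start, sperm was at 87.9 to 96.7% (n = 5) and brain at 38.4 to 66.5% (n = 8). Brain was thus above sperm at the first stretch and below it at these 3 CpGs, further along the gene. The 2 CpGs at the 3′ end of the second stretch had a value in 1 library of control WT F0 sperm, at 66.7 and 88.9%, and stood at 59.1 and 28.8% in brain (n = 8). Control WT F1 sperm held 4 libraries with a value at the first stretch and 2 at the second, where it was at 85.4 to 93.8%.

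Tdgf1 was unmethylated in sperm upstream of its start. All 4 cytosines of the printed stretch, -450 to -413 bp from the start, were at 0% in control WT F0 sperm (n = 6), whereas brain was at 57.4, 63.7, 94.3 and 50.2% (n = 4). Lin28a was higher in sperm at single cytosines well inside the gene and at its 3′ end. The cytosine 15403 bp after its start was at 95.5% (n = 9) in sperm of F0 control WT males, 96.2% (n = 5) in F1 sperm and 38.8% (n = 8) in brain, and that at 7264 bp was at 61.4% (n = 7), 74.1% (n = 4) and 9.12% (n = 8).

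Klf4 was near 0 around its start, and 113 of its 118 cytosines scoreable in both F0 sperm and F1 brain were below 20% in both. Higher levels were found further in, at cytosines outside that set. The cytosines 2596 and 2644 bp after the start were at 70.7 and 91.8% in control WT F0 sperm (n = 8) and at 16.8 and 32.4% in brain (n = 8). Prdm14 showed a site at which F0 and F1 sperm differed in level. The 3 cytosines 8389, 8507 and 8512 bp after its start were at 12.5 (n = 6), 9.43 (n = 8) and 6.83% (n = 8) in control WT F0 sperm, at 91.7, 65.2 and 75.3% in control WT F1 sperm (n = 2), at 59.5, 75.8 and 79.96% in smoked WT F1 sperm (n = 3) and at 94.04, 88.9 and 87.7% in control WT F1 brain (n = 8). With so few F1 sperm libraries this was not tested, and the tissues' shared cytosines of Prdm14 do not include it.

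**Figure D2:**
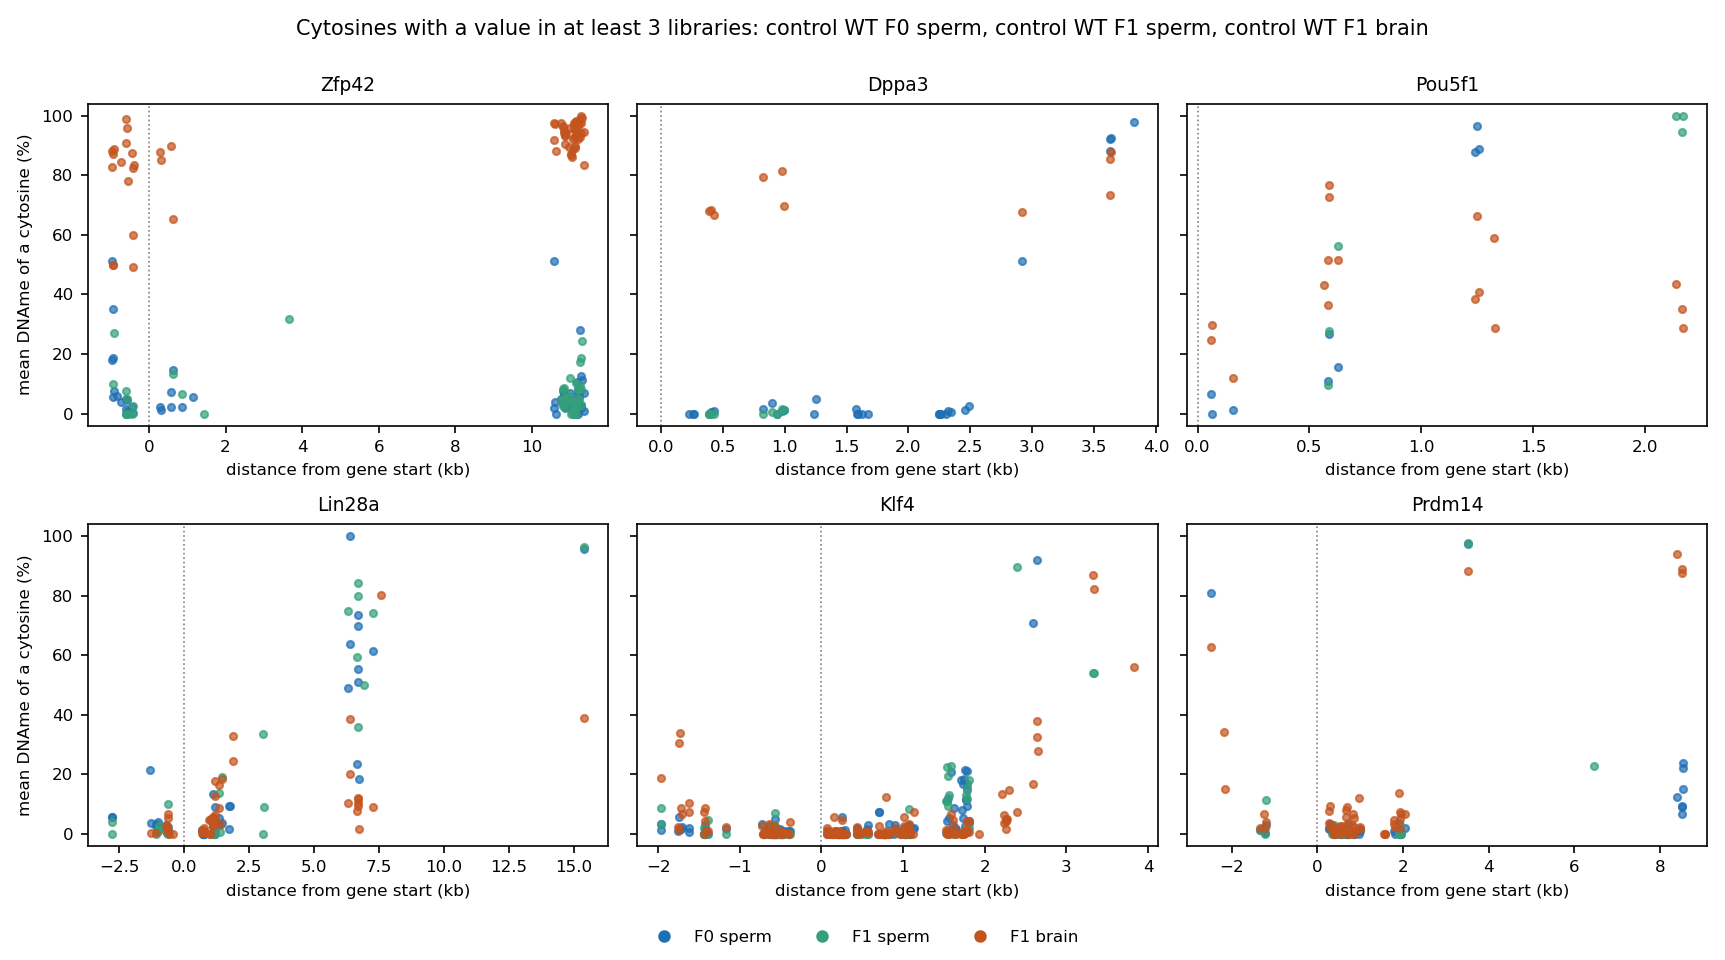
Mean DNAme in percent of single cytosines (y axis; at least 3 libraries) against distance from the gene start in kb (x axis; dotted line at 0) in control WT F0 sperm, F1 sperm and F1 brain, for 6 of the genes. In the 5′ part of Dppa3 and over most of Zfp42 the sperm points lie near 0 and the brain points above 60%, with exceptions near -1 kb in Zfp42 (up to 51.3% in sperm), in Pou5f1 they cross between the stretches near 0.6 and 1.2 kb, and in Lin28a the sperm points beyond 6 kb lie mostly above the brain points.

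The tissues were compared by test in control WT F1 brain against control WT F1 sperm, which share generation and strain of mother. Scoreable cytosines at most 100 bp apart were joined into regions of at least 3 cytosines and over 50 bp, and limma fitted the group means over all regions, with Benjamini-Hochberg adjustment and a threshold of 0.05. Members held 10 tested regions, of which 4 were called, all higher in brain, where 56.8% of 30915 regions were called and 30.9% were called as higher.

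The Zfp42 coding region (chr8:43295671-43296213, 27 cytosines) gave the largest difference. Brain libraries ran from 90.97 to 95.4% with a median of 94.03% (n = 8) and sperm libraries from 4.19 to 7.1% with a median of 5.73% (n = 6). The groups did not overlap, and the difference was 87.98 points (SE 1.47, adjusted p = 1.46e-16, limma).

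In Esrrb, the intron region printed above (chr12:86475943-86476019) ran from 83.02 to 91.5% with a median of 86.6% in brain (n = 8) and held 37.04 to 51.4% with a median of 46.8% in F1 sperm (n = 5). The difference was 41.6 points (SE 2.39, limma adjusted p = 6.71e-10), and no library of one tissue reached the other. F0 sperm was at a like level there, at 42.9% (n = 10), which left brain 44.4 points higher (SE 2.55, limma adjusted p = 4.18e-12).

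A second Esrrb intron region (chr12:86405424-86405515, 4 cytosines) was at 90.1 to 97.9% with a median of 93.8% in brain and at 43.5 to 76.01% with a median of 69.6% in F1 sperm (n = 6), a difference of 28.5 points (SE 4.25, limma adjusted p = 2.47e-05). Control WT F0 sperm did not share that level. It held a median of 93.7% over a range of 56.05 to 99.1% (n = 10), and brain minus F0 sperm was 6.67 points (SE 4.65, limma adjusted p = 0.238). The call thus held against control WT F1 sperm and not against F0 sperm. Over the 3 cytosines scoreable in both F1 sperm groups, control WT was at 74.8% (52.8 to 90.2%, n = 6). Smoked WT F1 sperm was at 88.9% (85.8 to 91.7%, n = 6), and the groups did not differ by the test.

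The last called region lay in the 5′ exon of Klf4 (chr4:55531897-55532027, 5 cytosines), where brain stood at 0 to 1.39% and F1 sperm at about 0 in each library. The difference was 0.606 points (SE 0.203, limma adjusted p = 0.0183), and the call was lost without a variance trend (limma adjusted p = 0.0963) or with all 6 F1 groups in the fit (limma adjusted p = 0.169). Against F0 sperm it turned to -0.544 points (SE 0.647, limma adjusted p = 0.51). The other 6 regions, 2 in Lin28a, 3 in Esrrb and 1 upstream of Prdm14, differed by -0.277 to 3.37 points and were not called.

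Averaged over whole gene windows, 6 of 8 tested members differed, 5 higher and 1 lower in brain, against 65.1% of 15330 genes, of which 40.7% were higher and 24.4% lower. Higher in brain were Zfp42 by 86.3 points (SE 0.861, limma adjusted p = 3.53e-19), Pou5f1 by 28.8 (SE 3.07, limma adjusted p = 2.18e-06), Nanog by 16.1 (SE 4.45, limma adjusted p = 0.00558), Esrrb by 4.85 (SE 1.22, limma adjusted p = 0.00293) and Klf4 by 2.82 (SE 0.861, limma adjusted p = 0.0102). The Pou5f1 window rested on 3 cytosines and on 4 F1 sperm libraries. The Nanog window rested on 3 cytosines, and its sperm libraries (60.3 to 91.02%, n = 5) overlapped those of brain (89.2 to 96.3%, n = 8). Neither the Nanog nor the Klf4 result held against control WT F0 sperm, in which the windows were averaged over more cytosines. There Nanog was at 92.3% in sperm (n = 10) and 92.9% in brain over 4 cytosines, a difference of 0.667 points (SE 1.78, limma adjusted p = 0.752). The Klf4 window turned to lower in brain, at 1.86 to 4.72% with a mean of 3.67% in sperm (n = 10) and 2.17% in brain over 140 cytosines, a difference of -1.51 points (SE 0.341, limma adjusted p = 0.000553). Zfp42, Pou5f1 and Esrrb stayed higher in brain, by 84.4, 8.7 and 2.27 points (limma adjusted p of 1.91e-26, 0.0303 and 0.000346), where 72.4% of 17491 genes were called and 32.3% as higher. The Pou5f1 window then held 9 cytosines, and its F0 sperm libraries (19.5 to 42.9%, n = 6) overlapped those of brain (31.7 to 49.03%, n = 8).

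Lin28a was the called member that was lower in brain, by 23.5 points (SE 1.18, limma adjusted p = 9.26e-10). Its sperm libraries ran from 30.3 to 38.5% (n = 4) and its brain libraries from 7.95 to 10.97% (n = 8). Prdm14 and Sox2 differed by -1.73 points (SE 0.999, limma adjusted p = 0.143) and 1.13 points (SE 0.722, limma adjusted p = 0.189). Against F0 sperm Lin28a was lower in brain by 9.39 points (difference -9.39, SE 0.986, limma adjusted p = 4.87e-08), while Prdm14 and Sox2 were higher by 8.01 and 1.31 points (limma adjusted p of 2.45e-11 and 0.000996). The Prdm14 window held 41 cytosines there and 5 against F1 sperm, where its difference was not called, so its change of sign sets unlike cytosines side by side. The 41 include the site described above, at which F0 sperm was low while brain and the few F1 sperm libraries were high. How much of the Prdm14 difference came from that site was not tested. Of promoter windows only those of Sox2 and Lin28a had enough cytosines scoreable in both F1 sperm and brain to be tested. Sox2 was called, at 0.556 to 3.2% in brain (n = 8) and 0% in each F1 sperm library (n = 6), a difference of 1.54 points (SE 0.389, limma adjusted p = 0.00721), where 22.0% of promoters were called and 20.0% as higher. The Sox2 promoter call was lost with all 6 F1 groups in the fit (SE 0.73, limma adjusted p = 0.162). In the fit of the pair the Lin28a promoter differed by -0.277 points (SE 0.782, limma adjusted p = 0.853). Of single cytosines, 61 of 141 tested were called, 47 higher and 14 lower in brain, against 41.9% of 451625, 25.0% as higher and 16.9% as lower. Called as higher were 29 of 29 in Zfp42, 2 of 2 in Dppa3, 2 of 3 in Pou5f1, 9 of 56 in Esrrb, 2 of 3 in Nanog, 2 of 16 in Sox2 and 1 of 13 in Klf4. Called as lower were 6 of 14 in Lin28a, 7 of 56 in Esrrb and 1 of 5 in Prdm14.

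F0 sperm, which was covered at more cytosines, allowed more of the members to be tested against control WT F1 brain, with the differences in generation and strain named above. Of 32 member regions 22 were called, 15 higher and 7 lower in brain, where 61.6% of 71263 regions were called, 27.3% as higher and 34.2% as lower. Over promoter windows 4 of 8 members were called, each higher in brain, against 25.8% of 12867 genes called and 23.3% called as higher.

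The called promoter windows were those of Zfp42, Dppa3, Tdgf1 and Pou5f1. They held 14 cytosines in Zfp42, 5 in Tdgf1 and only 3 each in Dppa3 and Pou5f1. The 3 of Dppa3 were those of its printed stretch, and the 3 of Pou5f1 lay in a region after its start. For Dppa3 and Pou5f1 no cytosine upstream of the start entered the value, so these calls do not cover upstream sequence. Zfp42 differed by 72.6 points (SE 2.02, limma adjusted p = 1.67e-16). Dppa3 held 48.9 to 100% with a median of 64.5% in brain (n = 8) and 0 to 2.78% with a median of 0% in sperm (n = 10), a difference of 67.2 points (SE 4.51, limma adjusted p = 1.05e-10). Tdgf1 held 57.5 to 71.4% with a median of 63.3% in brain (n = 4) and 0 to 1.67% with a median of 0% in sperm (n = 6), a difference of 63.4 points (SE 2.66, limma adjusted p = 9.64e-10). Pou5f1 held 15.8 to 32.75% with a median of 21.04% in brain (n = 8) and 0 to 13.7% with a median of 0% in sperm (n = 6), a difference of 19.3 points (SE 2.69, limma adjusted p = 2.22e-05). In none of the 4 did sperm and brain libraries overlap. The promoters of Klf4, Sox2, Lin28a and Prdm14 were at 0.614, 0.863, 1.44 and 1.26% in sperm and at 0.585, 1.07, 2.72 and 3.06% in brain, and none was called (limma adjusted p of 0.1 to 0.951).

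Inside the genes, the Lin28a intron printed above held 34.1 to 75.99% with a median of 48.1% in F0 sperm (n = 10) and 5.46 to 12.1% with a median of 8.66% in brain (n = 8). The difference of brain minus sperm was -40.3 points (SE 4.5, limma adjusted p = 1.23e-07). A neighbouring Lin28a intron region (chr4:134012450-134012522) was at 70.6% in sperm (n = 4) and 22.8% in brain (n = 7), a difference of -47.8 points (SE 4.13, limma adjusted p = 3.23e-07). Neither region could be tested in F1 sperm, in which too few libraries covered them. Nearer to the start, a Lin28a intron region (chr4:134017396-134017481) was called the other way, at 4.03% in F0 sperm (n = 10) and 12.8% in brain (n = 8), a difference of 8.8 points (SE 1.65, limma adjusted p = 9.19e-05). It was at 11.2% in F1 sperm and was not called there (limma adjusted p = 0.578). Of the uncalled Lin28a regions, chr4:134017658-134017818 passed without F0 sperm column 7 (limma adjusted p = 0.0177), and chr4:134019455-134019535 without F0 sperm column 1 or 9 or brain column 3 (limma adjusted p of 0.044, 0.00634 and 0.0335).

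In Klf4, a pair of regions differed in opposite directions. The coding region printed above was at 3.31 to 16.6% with a median of 8.99% in F0 sperm (n = 10) and 0.698 to 1.66% in brain, a difference of -7.7 points (SE 1.29, limma adjusted p = 2.48e-05). A region upstream of the gene (chr4:55534087-55534216) was at 0 to 7.02% in sperm and 7.52 to 16.8% in brain, a difference of 10.6 points (SE 1.11, limma adjusted p = 5.08e-08). The 4 Klf4 regions that lie between them, at and around the start, differed by -0.544 to 0.0810 points and were not called. The region nearest to the start of Sox2 (chr3:34650403-34650512) was not called either, at 1.06% in sperm and 0.896% in brain, while an upstream Sox2 region (chr3:34648830-34648962) was at 0.768% in sperm and 4.71% in brain (difference 3.94 points, SE 0.833, limma adjusted p = 0.000376), and a coding Sox2 region (chr3:34650752-34651327) at 0.274% and 1.82% (difference 1.54 points, SE 0.279, limma adjusted p = 7.59e-05). The nearest region of Prdm14 (chr1:13126452-13126904) was at 1.03% in sperm and 3.17% in brain (difference 2.14 points, SE 0.603, limma adjusted p = 0.00439). The other Prdm14 regions were also higher in brain, by 4.74 points at chr1:13125120-13125381 and 2.17 points at chr1:13128356-13128498 (limma adjusted p of 0.00044 and 0.0207), and libraries of both tissues overlapped in all 3.

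Esrrb held 12 of the 32 regions, spread from 41.6 kb into the gene to its last exon. Near the CpG island at the start of its inner transcripts (chr12:86421822-86421941) sperm and brain were at 0.725 and 0.793% and did not differ by the test. Further along, brain was higher at chr12:86423548-86423624, at 25.7% against 1.73% (difference 24.0 points, SE 3.67, limma adjusted p = 1.1e-05), and lower at chr12:86468773-86468868, at 77.1% against 92.8% (difference -15.6 points, SE 1.25, limma adjusted p = 8.19e-10), and at chr12:86501745-86502001, at 78.4% against 97.8% (difference -19.4 points, SE 1.42, limma adjusted p = 9.59e-09). Smaller differences were called at 6 more Esrrb regions. Brain was higher by 1.86 points at chr12:86402738-86403119, 1.87 at chr12:86422508-86422977, 7.94 at chr12:86423116-86423231 and 10.6 at chr12:86502238-86502300 (limma adjusted p of 8.11e-06 to 0.0133). It was lower, by -6.69 points at chr12:86425566-86425709 and -8.89 points at chr12:86520279-86520370 (limma adjusted p of 0.0482 and 0.00632). The first of these calls was lost in 9 of 18 fits that left out 1 library, which were F0 sperm columns 1, 2, 4, 6, 9 and 10 and brain columns 4, 6 and 8 (limma adjusted p of 0.0649 to 0.107). Over the whole Esrrb window these directions nearly balanced, with brain 2.27 points higher (SE 0.482, limma adjusted p = 0.000346). The region of chr12:86468773-86468868 was at 81.4% in F1 sperm and 84.8% in brain over the cytosines those groups shared, and was not called there (limma adjusted p = 0.29).

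**Figure D3:**
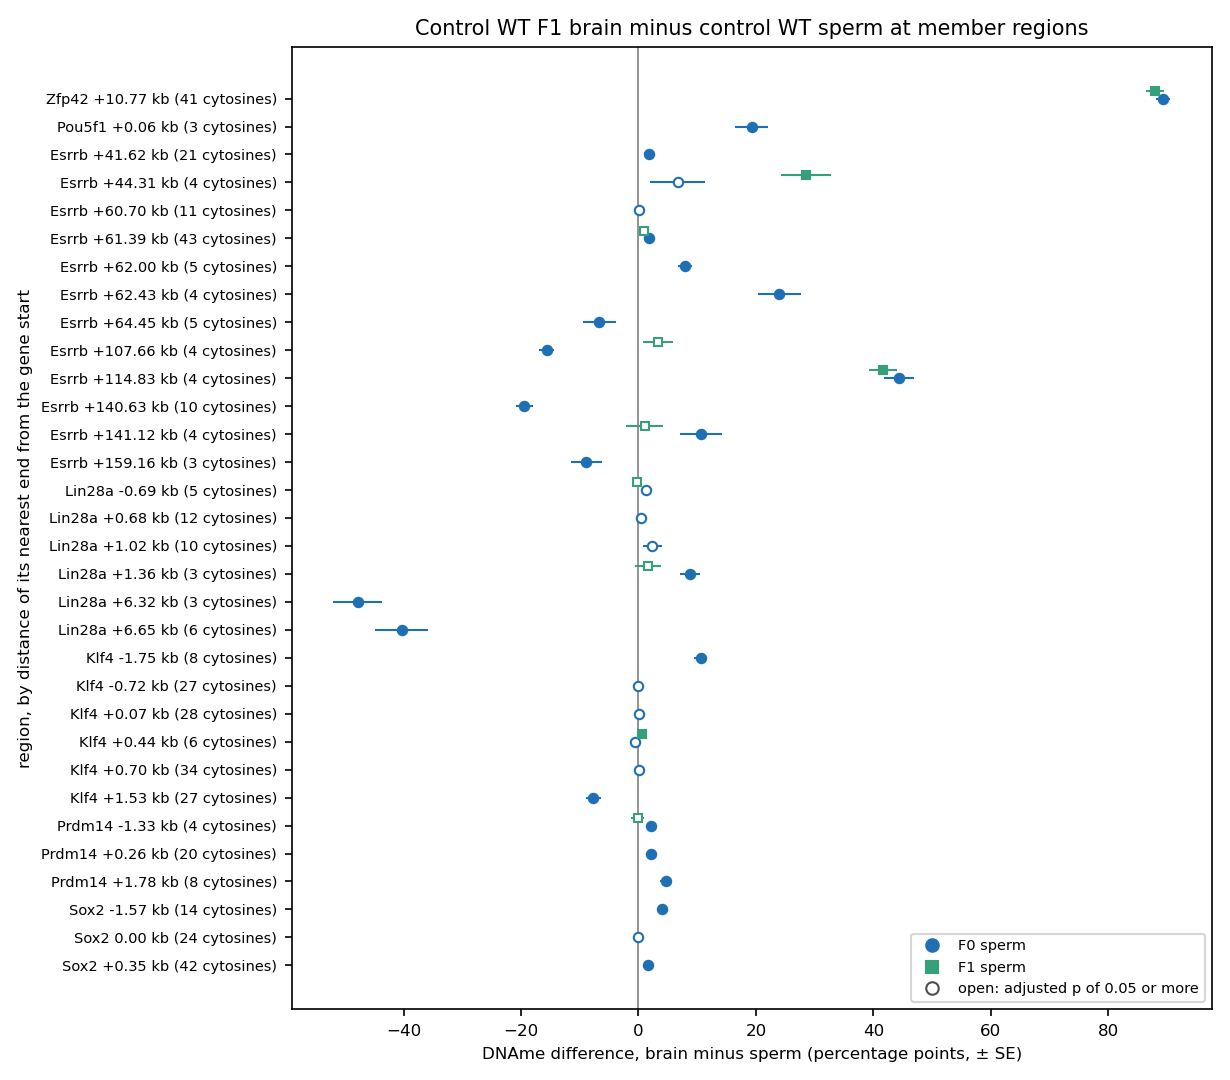
DNAme difference in percentage points (x axis, ± SE) of control WT F1 brain minus control WT F0 sperm (circles) or F1 sperm (squares) at the 32 member regions (y axis, by gene and distance from its start); open symbols have an adjusted p of 0.05 or more. The Zfp42 coding region lies at 87.98 and 89.3 points, a pair of Lin28a intron regions lies below -40 points, and the regions around the starts of Klf4 and Sox2 lie near 0.

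Other genes of the pluripotency network served as a comparison list of 30, among them Tfcp2l1, Klf2, Dppa2, Gdf3, Lifr and Tet1. Of 28 tested gene windows, 22 were called between control WT F1 brain and F1 sperm, 11 higher and 11 lower in brain, where 65.1% of all gene windows were called, 40.7% as higher and 24.4% as lower. Their median difference was 0.864 points, against 0.75 over all genes. Highest in brain relative to sperm were Gdf3, a TGF-beta ligand (68.6% against 1.56%), Dppa2, a chromatin-binding factor of early embryos (90.5% against 36.8%) and Dppa5a (95.5% against 70.1%). Lowest were Mycn, a MYC family transcription factor (6.64% against 25.2%), Trim71, a let-7 target with a role in RNA regulation (13.6% against 29.5%) and Tet2, an enzyme that oxidizes methylated cytosine (59.2% against 69.7%).

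The study's own questions were whether CS changes sperm DNAme, whether the change recovers, whether loss of NRF2 resembles it, and whether sons differ. Of 12 comparisons (7 within F0 sperm, 1 within F1 sperm and 4 within F1 brain), 11 called 0 member regions of 35, 14 or 40 tested, and 1 called 1 region. The share of all regions called, by the same limma test, was 0.00159% for smoked WT against control WT F0 sperm, 0.0% for recovery 1, 0.00318% for recovery 2, 0.0318% for recovery 3, 0.374% for control Nrf2-/-, 0.314% for smoked Nrf2-/- and 0.00637% for smoked against control Nrf2-/-. It was 0.0% in F1 sperm, and in F1 brain 0.0% for smoked WT sires, 0.0136% for control Nrf2-/- sires, 0.021% for smoked Nrf2-/- sires and 0.0% for smoked against control Nrf2-/- sires. At an unadjusted p under 0.05, 0 to 5 of 35 member regions passed in F0 sperm, 6 of 14 in F1 sperm and 2 to 7 of 40 in F1 brain. Of all regions, 3.95 to 7.94% passed that threshold in F0 sperm, 5.7% in F1 sperm and 4.08 to 12.04% in F1 brain. The 14 regions of F1 sperm were measured in the same libraries and are not independent, and none passed the adjusted threshold.

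The called region was the Klf4 coding stretch printed above (chr4:55530655-55530936, 27 cytosines, 1530 to 1811 bp after the start), in control Nrf2-/- against control WT F0 sperm. Control WT libraries ran from 2.86 to 16.6% with a median of 8.99% (mean 8.94% ± 3.9, SD, n = 10). Control Nrf2-/- libraries ran from 10.5 to 25.2% with a median of 15.1% (mean 16.7% ± 5.3, n = 8, with 2 libraries lacking a value). The groups overlapped, and the difference was 7.74 points (SE 1.79, limma adjusted p = 0.0229), where 0.102% of all regions were called as higher.

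Smoked Nrf2-/- F0 sperm held 7.64 to 20.2% in the Klf4 region with a median of 12.9% (mean 13.3% ± 4.1, n = 6), which was 4.39 points above control WT (SE 1.95, limma adjusted p = 0.552). Its difference from control Nrf2-/- was -3.35 points (SE 2.04, limma adjusted p = 0.903). The WT groups exposed to CS lay near control WT, with means of 8.79% in smoked WT (n = 7) and 8.27, 9.01 and 9.09% in recovery 1, 2 and 3 (n = 9, 10 and 10). In F1 brain the region was at 1.24% in sons of control WT sires, 1.32% for smoked WT, 1.91% for control Nrf2-/- and 1.94% for smoked Nrf2-/- sires, and no comparison there was called (limma adjusted p of 0.391 to 1.00). In F1 sperm it could not be tested.

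The Klf4 call was not stable. It was lost on the arcsine scale (adjusted p = 0.066, limma), with the 2 groups fitted alone (adjusted p = 0.281, limma) and with at least 6 libraries required of every group (adjusted p = 0.169, limma), and it was lost when control WT column 2 or 10 or control Nrf2-/- column 1, 4 or 8 was left out, with adjusted p of 0.0527 to 0.1 (limma). The germline promoters named above had medians over genes of 0.766% in control WT and 1.58% in control Nrf2-/- F0 sperm. In the other F0 groups these medians were 0.953% in smoked WT, 2.04, 1.19 and 1.53% in recovery 1, 2 and 3, and 1.36% in smoked Nrf2-/-. The imprinted promoters had medians of 0.79% in control WT and 0.753% in control Nrf2-/- F0 sperm. The part of either kind of promoter in the result was not tested. In F0 sperm every Nrf2-/- library carries a lower facility number than every WT library, so that the run of numbers and the genotype cannot be told apart.

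**Figure D4:**
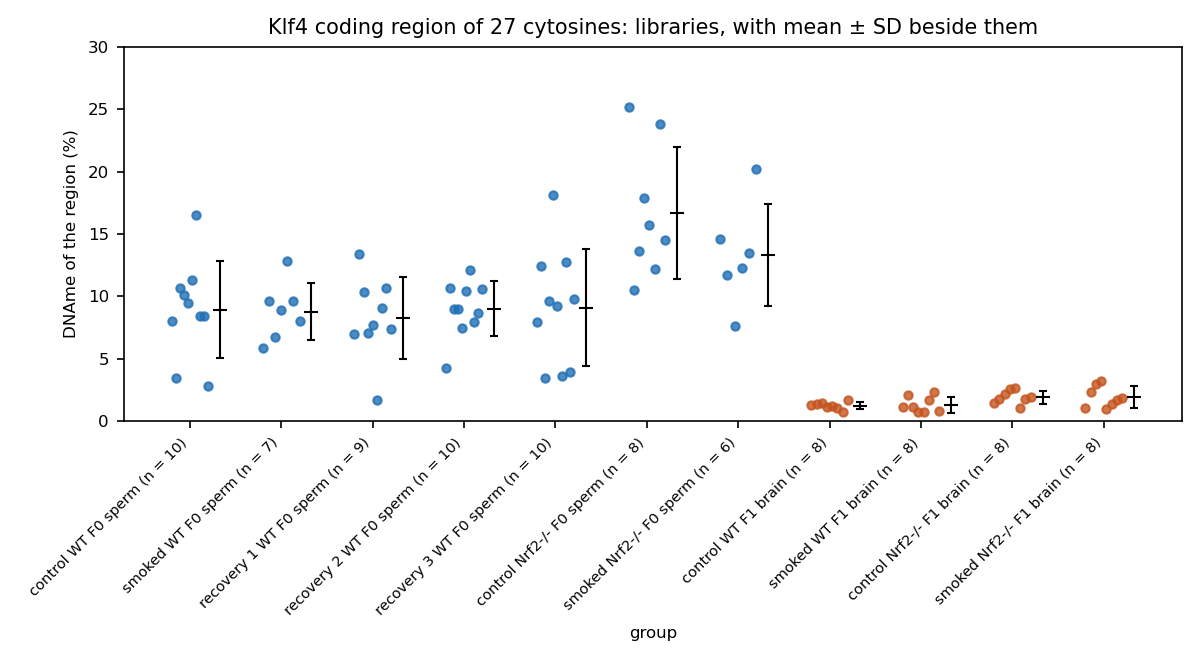
DNAme in percent (y axis) of the Klf4 coding region of 27 cytosines in each library (points) of the F0 sperm and F1 brain groups (x axis), with mean ± SD beside the points. Control Nrf2-/- F0 sperm is highest, with a mean of 16.7%, the WT F0 groups have means of 8.27 to 9.09% and overlap it, and every brain library lies below 4%.

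In the comparisons without a call, the member region with the smallest p was as follows. In smoked WT, recovery 1 and recovery 2 F0 sperm it was a region -975 to -741 bp from the start of Zfp42 (chr8:43307721-43307955), which stood at 18.3% in control WT and at 14.8, 13.4 and 13.4% in these groups (limma adjusted p of 1.00, 0.897 and 1.00). These comparisons share the control libraries. The same region was at 14.9% in recovery 3, 13.1% in control Nrf2-/- and 16.8% in smoked Nrf2-/- F0 sperm, so that control WT had the highest mean of the 7 groups, while its libraries (11.1 to 23.4%) overlapped those of each.

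In recovery 3 it was the Esrrb region of chr12:86405424-86405515, at 96.8% against 88.1% (limma adjusted p = 0.723). Control WT column 5 of F0 sperm was at 56.05% and column 8 at 70.2% in that region, where the other 8 libraries lay at 87.6 to 99.1%. In smoked against control Nrf2-/- F0 sperm it was an upstream Sox2 region, at 0.839% against 2.27% (limma adjusted p = 0.775). In F1 sperm it was a region upstream of Lin28a (chr4:134019455-134019535), at 0.93% in sons of smoked WT sires against 3% in sons of control WT sires (limma adjusted p = 0.839).

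In F1 brain the smallest p belonged to a Lin28a intron region for smoked WT sires (19.9% against 12.5%, limma adjusted p = 1.00), a Lin28a coding region for control Nrf2-/- sires (1.63% against 0.781%, limma adjusted p = 0.507), a region upstream of Klf4 for smoked Nrf2-/- sires (1.47% against 0.699%, limma adjusted p = 0.302) and a Prdm14 region for smoked against control Nrf2-/- sires (4.78% against 8.83%, limma adjusted p = 0.309). In each of these 4 the libraries of the groups overlapped.

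Whole gene windows, promoter windows and single cytosines of the members gave 0 calls by limma in each of the 12 comparisons. Of all gene windows, 0.0116% were called in recovery 3, 0.313% in control Nrf2-/- and 0.273% in smoked Nrf2-/- F0 sperm, 0.00565% for control Nrf2-/- and 0.0113% for smoked Nrf2-/- sires in F1 brain, 0.0621% for smoked against control Nrf2-/- sires, and 0.0% in the other 6. Of promoter windows, 0.00801% each were called in control and smoked Nrf2-/- F0 sperm, 0.0227% in F1 sperm, 0.00761% for control Nrf2-/- and 0.0152% for smoked Nrf2-/- sires in F1 brain, and 0.0% in the other 7. Of single cytosines in F0 sperm, 0.000684% were called in smoked WT, 0.000293% in recovery 1, 0.000488% in recovery 2, 0.00225% in recovery 3, 0.0841% in control Nrf2-/-, 0.0738% in smoked Nrf2-/- and 0.00176% between the Nrf2-/- groups. Called cytosines made up 0.000386% in F1 sperm, and in F1 brain 0.0% for smoked WT, 0.00223% for control Nrf2-/- and 0.00345% for smoked Nrf2-/- sires and 0.000863% between the Nrf2-/- groups. At an unadjusted p under 0.05, 0 to 3 of the 9 or 10 gene windows and 9 to 40 of the 153 to 619 cytosines passed, where 3.83 to 17.3% of all gene windows and 3.89 to 6.77% of all cytosines did. The gene window with the smallest p in control Nrf2-/- against control WT F0 sperm was Klf4, at 4.18% against 2.85% (difference 1.33 points, SE 0.428, limma adjusted p = 0.277). In brain, Dppa3 stood at 69.8% in sons of smoked Nrf2-/- sires, 77.1% in sons of control Nrf2-/- sires and 74.98% in sons of control WT sires (limma adjusted p of 0.252 and 0.51). The brain of sons of smoked Nrf2-/- sires was also the group with the lowest median over the imprinted promoters. It was at 21.7% there, against 32.5% for control Nrf2-/- and 27.8% for control WT sires. Its median over the germline promoters, at 86.8%, was near those of these groups, at 87.03 and 87.3%. Single germline promoters went both ways, with Ddx4 at 58.6% against 65.9 and 65.5%, and Sycp1 at 88.9% against 87.03 and 87.3%. The part of these in the Dppa3 values and in the Trim71 call that follows was not tested. Of the comparison list, 1 gene was called in 1 of the 12 comparisons. Trim71 was at 14.3% in brain of sons of smoked Nrf2-/- sires and 15.8% in sons of control Nrf2-/- sires (difference -1.48 points, SE 0.285, limma adjusted p = 0.0251).

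Whether the change with CS differed between genotypes was tested as an interaction. It was called in 0 of 35 member regions in F0 sperm and 0 of 40 in brain, with lowest adjusted p (limma) of 1.00 and 0.311. In the Klf4 coding region the change with CS differed between Nrf2-/- and WT F0 sperm by -3.2 points (unadjusted p = 0.251, limma).

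By the size rule that follows the study's thresholds, a region is differentially methylated when at least 33.3% of its cytosines and its mean change by over 5 points, with no account of the spread between libraries. Member regions passing it numbered 0 of 35 in smoked WT F0 sperm (2.61% of all regions), 1 in recovery 1 (3.4%), 1 in recovery 2 (2.53%), 2 in recovery 3 (4.1%), 4 in control Nrf2-/- (5.1%), 2 in smoked Nrf2-/- (4.93%) and 0 in smoked against control Nrf2-/- (3.73%). They numbered 3 of 14 in F1 sperm (13.1%), and of 40 in F1 brain 5 for smoked WT (8.33%), 4 for control Nrf2-/- (7.53%), 2 for smoked Nrf2-/- (13.6%) and 5 for smoked against control Nrf2-/- sires (16.0%). The 4 of control Nrf2-/- F0 sperm were the Klf4 coding region, the Lin28a intron (39.5% against 47.4%), the region upstream of Zfp42 and the Esrrb region of chr12:86405424-86405515 (96.1% against 88.1%). Among them only the Klf4 region also passed the limma test. The study also set a minimum of reads per CpG, which could not be applied here without read counts. The counts by the size rule are therefore not the study's own.

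**Figure D5:**
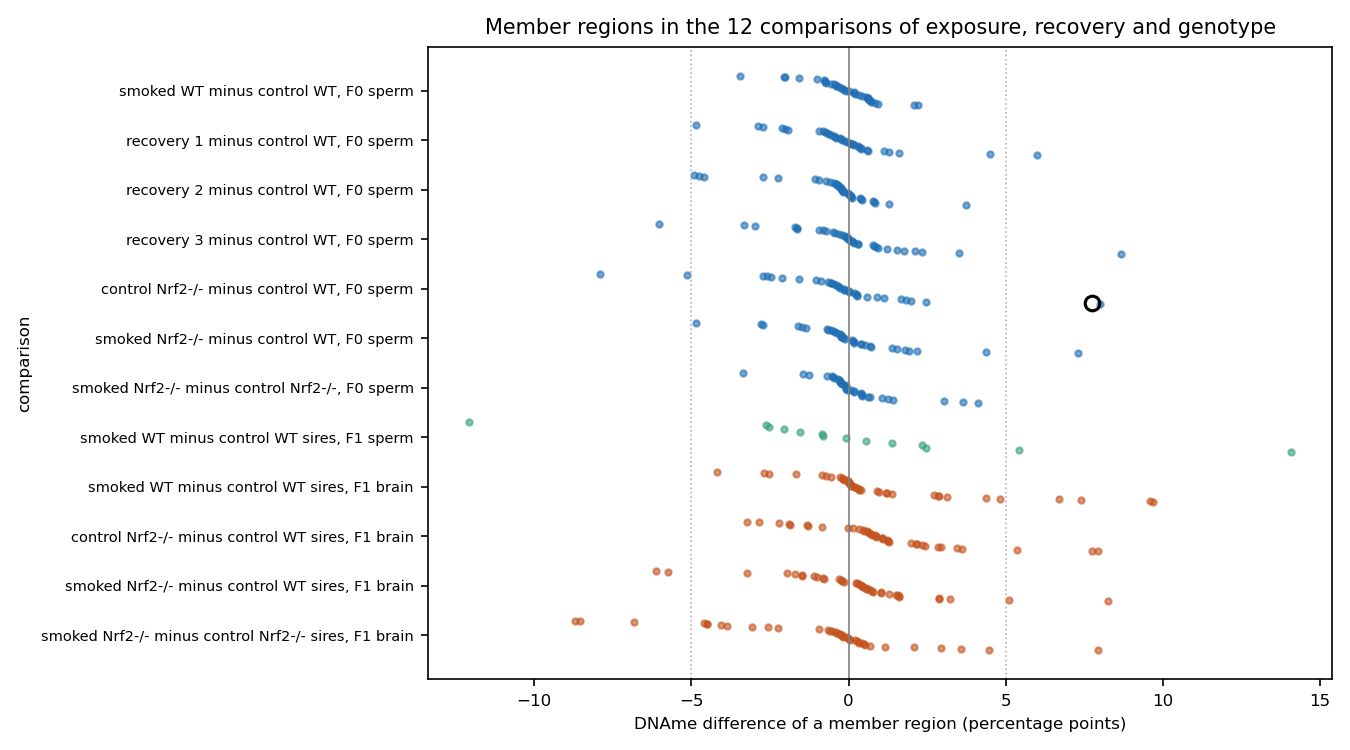
DNAme differences in percentage points (x axis) of each member region (points) in the 12 comparisons of exposure, recovery and genotype (y axis); dotted lines mark 5 points and the ringed point is the Klf4 coding region called at 7.74 points. Most member regions lie within 5 points of 0 in each comparison, and the widest spread is in F1 sperm, from -12.1 to 14.1 points.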

How the data were processed

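The authors aligned RRBS reads to mm10 with Bismark, whose version is not given in the sources used here, and deposited 1 table per group with a methylation percent per cytosine and library. A percent is the share of reads left unconverted. Read counts were not used here, so depth is unknown, and a percent from few reads has a larger error that enters only through the spread between libraries. Columns carry facility numbers that match no sample label, so each was tied to its group alone and is called by its order there, and 0 columns of values were left unused. Gene positions came from GENCODE vM21, and the sequences were read from an mm10 genome.

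Cytosines with at least 4 libraries in every group of a set were joined over at most 100 bp into regions of at least 3 cytosines and over 50 bp. A library needed 50% of a region's cytosines, and a group at least 3 libraries. limma 3.58.1 (R 4.3.3) fitted 1 mean per group, with a variance trend, over all features, and p-values were adjusted by the Benjamini-Hochberg method at 0.05. F0 sperm, F1 sperm and F1 brain were fitted apart, and control WT F1 brain was set against control WT F1 sperm, or F0 sperm, in fits of the pair. The region test was tried on simulated, normally distributed values, with changes added only at regions of intermediate level. Regions near 0, where many member regions lie, were given no change, so finding a change at them was not assessed. Gene windows ran from 3000 bp upstream to the gene's end, and promoter windows from 1000 bp upstream to 500 bp downstream, for genes with at least 3 scoreable cytosines. Alternatives changed the scale, joining distance, library minimum, strands, variance trend, groups in the fit and the sperm group, and left out each library in turn.

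All 10 members are named. Of their regions, the text names those nearest a gene start, those called in any comparison and, where none was called, that with the smallest p, and of the list of 30 pluripotency genes the 3 highest and 3 lowest called windows. Other regions and cytosines named were chosen after their values were seen. The members and lists were chosen with earlier results of these data known. p-values measure the spread between animals as labelled. In the F1 comparisons the exposure and genotype are those of the sire. The labels do not name the sires, so some sons may share a sire, and the spread between sires was not measured.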

Additional observations from a re-analysis of the deposited data

Results flagged for a closer look

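Libraries far from the rest of their group were looked for in 179 groups of 4 to 10 values, over the gene windows of the members and their 4 regions called between brain and sperm. A value was kept where its gap to the nearest other, over the group's range, passed Dixon's 95% critical value. This held for 28 groups, and chance alone gives about 1 in 20.

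In the sperm windows, Zfp42 was highest in control WT F0 column 9 (10.8%, next 7.17%). Dppa3 was lowest in control WT F0 column 5 (15.5%) and recovery 2 column 6 (13.5%), and Esrrb in recovery 2 column 8 (31.7%) and smoked Nrf2-/- F0 column 3 (33.1%). Klf4 was highest in smoked WT F0 column 7 (5.06%) and Sox2 in recovery 1 column 1 (3.06%). Lin28a was lowest in control Nrf2-/- F0 column 8 (4.21%) and recovery 1 column 9 (8.68%), and highest in smoked Nrf2-/- F0 column 5 (12.4%) and control WT F1 sperm column 4 (30.4%). Nanog was highest in recovery 3 column 9 (99.5%) and lowest in smoked WT F0 column 4 (65.4%). Pou5f1 was lowest in smoked Nrf2-/- F0 column 9 (-3.57%, an adjusted value below 0), and Prdm14 was highest in recovery 3 column 4 (7.55%) and lowest in smoked WT F0 column 8 (2.53%). Tdgf1 was highest in control WT F0 column 3 (10.6%), recovery 2 column 6 (8.48%) and smoked WT F0 column 1 (6.46%), in groups of 4 to 7 libraries with a value.

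In the brain windows, Lin28a was lowest in control WT column 7 (5.27%), Sox2 highest in control WT column 8 (3.83%) and Zfp42 lowest in control Nrf2-/- column 5 (88.9%). That library was also lowest at the Zfp42 coding region (91.5%, next 93.6%). Among the other regions, the Esrrb region of chr12:86405424-86405515 was lowest in control Nrf2-/- brain column 4 (85.6%), and that of chr12:86475943-86476019 was highest in recovery 2 F0 sperm column 5 (54.0%) and lowest in smoked Nrf2-/- brain column 3 (78.8%). The Klf4 region of chr4:55531897-55532027 was highest in recovery 1 column 1 (1.49%) and smoked Nrf2-/- F0 column 2 (4.15%).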

How the results depend on the processing

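Of 818 alternative values, 779 kept their direction and their side of the threshold, or a count within 1.5 times. No paired analysis was possible because the columns carry no replicate numbers. The count of member regions called between control Nrf2-/- and control WT F0 sperm fell from 1 to 0 on the arcsine scale, with the 2 groups alone and with at least 6 libraries, and was 0 to 1 with a library left out. The count called between F1 brain and F1 sperm was 4 in each fit without 1 library, 2 with at least 6 libraries (fewer regions tested) and 22 with F0 sperm (more regions tested). Called cytosines fell from 61 to 28 with at least 6 libraries, and 1 promoter was called in place of 6 gene windows. The Klf4 exon region turned from higher to lower in brain against F0 sperm (adjusted p = 0.51, limma), and the cause was not tested. By the size rule, a change of 10 points left 0 member regions in recovery 1, 2 and 3, control and smoked Nrf2-/- F0 sperm and all 4 brain comparisons. It left 2 of 14 in F1 sperm, where 2.27% of all regions passed. Joining over 300 bp gave 1 in smoked WT F0 sperm, 2 in recovery 1, 1 in smoked against control Nrf2-/- F0 sperm, and in brain 2 for smoked WT and 1 for smoked Nrf2-/- sires. Averaging both strands gave 1 in smoked Nrf2-/- F0 sperm. Depth is unknown, and F1 sperm, with the fewest positions, limits the tests of Dppa3, Tdgf1, Pou5f1 and Nanog.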

Other observations

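The rule for naming genes with a like pattern asked for a promoter value in every group and a difference of over 20 points between control WT F1 brain and F1 sperm, and no member met it. Sox2, Klf4 and Lin28a had promoter values in all 13 groups, and none of these differed by over 20 points. The 4 members whose promoter windows differed most against F0 sperm, Zfp42, Dppa3, Tdgf1 and Pou5f1, were too sparsely covered there in F1 sperm.

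At the Lin28a intron the single cytosines of F0 and F1 sperm stood in a different order. At 6650 bp after the start control WT F0 sperm was at 23.6% (n = 10) and control WT F1 sperm at 59.3% (n = 4), and at 6685 bp they were at 73.4 and 35.96%. Brain was at 7.74 and 12.03% at these positions (n = 8). This difference between generations was not tested.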
